A study of Homo sapiens with 6 samples.

Results

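The genes described here are 43 cytosolic chaperone and heat shock genes, whose ribosome occupancy was measured in K562, a line from human chronic myelogenous leukemia. They were chosen by symbol, as the subunits of the chaperonin CCT and of prefoldin, the HSP70 and HSP90 chaperones, their co-chaperones, and a few related factors, a rule that uses no measured value. Of these, 41 had a row among the 19330 transcripts of the count table, and HSPA1B and BAG1 were not analysed here. All 41 held enough footprints to be tested. In Ribo-Seq, nuclease digests the mRNA that no ribosome covers and the protected fragments, or footprints, are sequenced, so that footprints on a coding sequence (CDS) report how many ribosomes sat there. Footprint counts follow the amount of an mRNA as well as its translation, and these cannot be told apart here. All cells carried the lentiviral CRISPR vector pLentiCRISPRv2, were selected with puromycin for 48 h and were analysed 10 days after infection. In the sgN6AMT1 cells the guide targeted N6AMT1, a methyltransferase whose known substrates include the translation release factor eRF1, and in the sgCtrl cells the guides named in the labels were OR11A1 and OR2M49, after olfactory receptor genes. Each group had 3 libraries. Per the study, the 3 replicates of a group came from separate lentiviral infections. Which control guide each sgCtrl library carried is not stated.

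The libraries held between 1821356 and 2969736 footprints. N6AMT1 itself had 25, 24 and 34 footprints in sgCtrl. The sgN6AMT1 libraries held 10, 9 and 8, which gives -1.51 as the log2 fold change (SE 0.31, adjusted p = 6.69e-05 by edgeR's quasi-likelihood test). All 12 erythroid markers of K562 cells were detected, and 7 passed the threshold, 2 higher (HBE1 and TAL1) and 5 lower (GATA1, KLF1, LMO2, TFRC and HBZ) in sgN6AMT1. LMO2 had a log2 fold change of -1.44 (SE 0.17, adjusted p = 1.39e-11 by edgeR) and HBE1 one of 0.48 (SE 0.041, adjusted p = 1.46e-17). Their part in the results below was not tested. The markers, most of all the globins HBG1 and HBG2, had summed levels of 27518 to 29026 CPM (footprint counts scaled to the TMM-adjusted library size, TMM being the trimmed mean of edgeR) in sgCtrl and 27862 to 28794 CPM in sgN6AMT1. Of the markers of other cell types, the 3 T cell genes summed to 30.6 to 39.0 CPM in sgCtrl and 27.6 to 32.0 CPM in sgN6AMT1, the 3 epithelial genes to 162 to 189 and 175 to 195 CPM, and the 3 fibroblast genes to 36.7 to 42.4 and 31.6 to 36.9 CPM. Of these genes, CD2 and KRT5 were at 0 in all 6 libraries. Each sum was mostly a single gene, with sgCtrl means of 35.7 CPM for CD3D, 177 CPM for EPCAM and 31.4 CPM for COL1A2.

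Cytosolic chaperones bind newly made or unfolded polypeptides and keep them from aggregating. HSP70 proteins bind short hydrophobic stretches, with J proteins starting the cycle and nucleotide exchange factors ending it, and can pass clients on to HSP90, which matures kinases and steroid receptors. CCT, also called TRiC, is a stacked ring of paralogous subunits that folds actin and tubulin inside its chamber, and prefoldin delivers clients to it. Heat shock factor 1 (HSF1) raises transcription of many of these genes under proteotoxic stress by binding heat shock elements, inverted repeats of GAA units.

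The heat shock element is shown for the members with the inducible and constitutive HSP70 and HSP90 genes in view, since these moved in opposite directions in the footprints. Promoter sequences from RefSeq (GRCh38.p14), running from 250 bases before to 50 bases after each annotated start, were matched for 37 of the 43 members, and were missing for CCT6A, PFDN2, HSPA14, FKBP4, ST13 and HSF1. The 2-unit letters GAANNTTC or TTCNNGAA, each of which is its own reverse complement, were found at 16 of the 37 members (43.2%) and at 16.2% of all 27305 genes. The 3-unit form adds a GAA after GAANNTTC, or a TTC after TTCNNGAA, again with NN between, and these forms are reverse complements of each other. It contains the 2-unit form and was found at 5 of the 37 members (13.5%), against 0.608% of all genes. These were HSPA8, HSP90AA1, HSP90AB1, DNAJA1 and DNAJB6, of which 2 rose, 2 fell and 1 did not pass. Of the 16 members with the 2-unit letters, 5 rose, 3 fell, 7 did not pass and 1 had no row. Over all genes tested, 12.9% rose and 13.9% fell. For the 2-unit form alone, only HSPA1A, HSPA1B and DNAJB1, chosen by name, are printed. TCP1, CCT2, CCT4, PFDN6, STIP1, DNAJB4, BAG2 and HSPB1 held it too. A DNAJB1 site at another annotated start is also not printed. Every sequence is written in the direction of transcription with the units in capitals, and the letters describe the sequence only, not binding of a factor.
HSPA8, chr11:123062349-123062371 (minus strand), 230 bases upstream of the start: agcttGAAagTTCcaGAAcgctg
HSPA8, chr11:123062174-123062196 (minus strand), 55 bases upstream: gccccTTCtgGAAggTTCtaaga
HSP90AA1, chr14:102087115-102087137 (minus strand), 88 bases upstream: ggttcTTCcgGAAggTTCgggag
HSP90AB1, chr6:44247773-44247795 (plus strand), 165 bases upstream: gcaggTTCtgGAAgaTTCatggg
HSP90AB1, chr6:44247826-44247848 (plus strand), 112 bases upstream: gattgTTCtgGAAgcTTCtggat
DNAJA1, chr9:33025271-33025293 (plus strand), units from base 4, the start being base 1: gggcgGAActTTCcaGAAcgctc
DNAJB6, chr7:157336868-157336890 (plus strand), 131 bases upstream: gccgaGAAccTTCgcGAAggtgg
HSPA1A, chr6:31815432-31815449 (plus strand), 2 units, 106 bases upstream: ccctgGAAtaTTCccgac
HSPA1B, chr6:31827628-31827645 (plus strand), 2 units, 105 bases upstream: ccctgGAAtaTTCccgac
DNAJB1, chr19:14518462-14518479 (minus strand), 2 units, 77 bases upstream: gggcgGAAggTTCtggag
DNAJB1, chr19:14518432-14518449 (minus strand), 2 units, 47 bases upstream: ctctgGAAgcTTCcgccg

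HSPA1A and HSPA1B, near-identical neighbours, carried the same 18 bases. The start used for the promoter was the start of the transcript in the count table for DNAJA1, HSPA1A and DNAJB1, and lay 804 bases from it for HSPA8, 1777 for HSP90AB1, 21569 for DNAJB6 and 52642 for HSP90AA1, whose listed transcripts begin elsewhere.

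In N6AMT1-depleted cells the chaperone genes moved in both directions. The constitutive HSP70 HSPA8, the HSP90 gene HSP90AB1 and 6 of the 8 CCT subunits fell, while the stress-inducible HSPA1A and HSP90AA1 rose. Of the 41 genes tested, 7 rose, 13 fell and 21 did not pass an adjusted p of 0.05, so 48.8% passed, against 26.9% of all 9202 genes tested (12.9% higher and 13.9% lower). The median log2 fold change of the 41 genes was -0.054, and that of all genes tested was 0.0063. The members' median was 7.6e-04 with library totals as the scale, and between -0.076 (without sgN6AMT1 replicate 1) and -0.021 (without sgN6AMT1 replicate 3) with 1 library left out, or -0.024 without sgCtrl replicate 2. These genes were abundant, with a median of 339 CPM against 35.4 CPM over all genes tested. Of the 4479 genes at or above the lowest member (36.9 CPM), 36.5% passed and the median log2 fold change was -0.037. Of the 568 genes at or above the members' median level, 60.2% passed and the median was -0.11. With library totals as the scale, the split over all genes was 1560 higher and 976 lower, against 1191 and 1282, and that of the members 9 and 12. The libraries of the groups did not overlap for 7 of the 41 members that were higher and 15 of the 41 that were lower in sgN6AMT1. Over all 9202 genes tested these were 1690 (18.4%) and 1764 (19.2%), so the share of members that were higher was not above that of all genes.

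**Figure D1:**
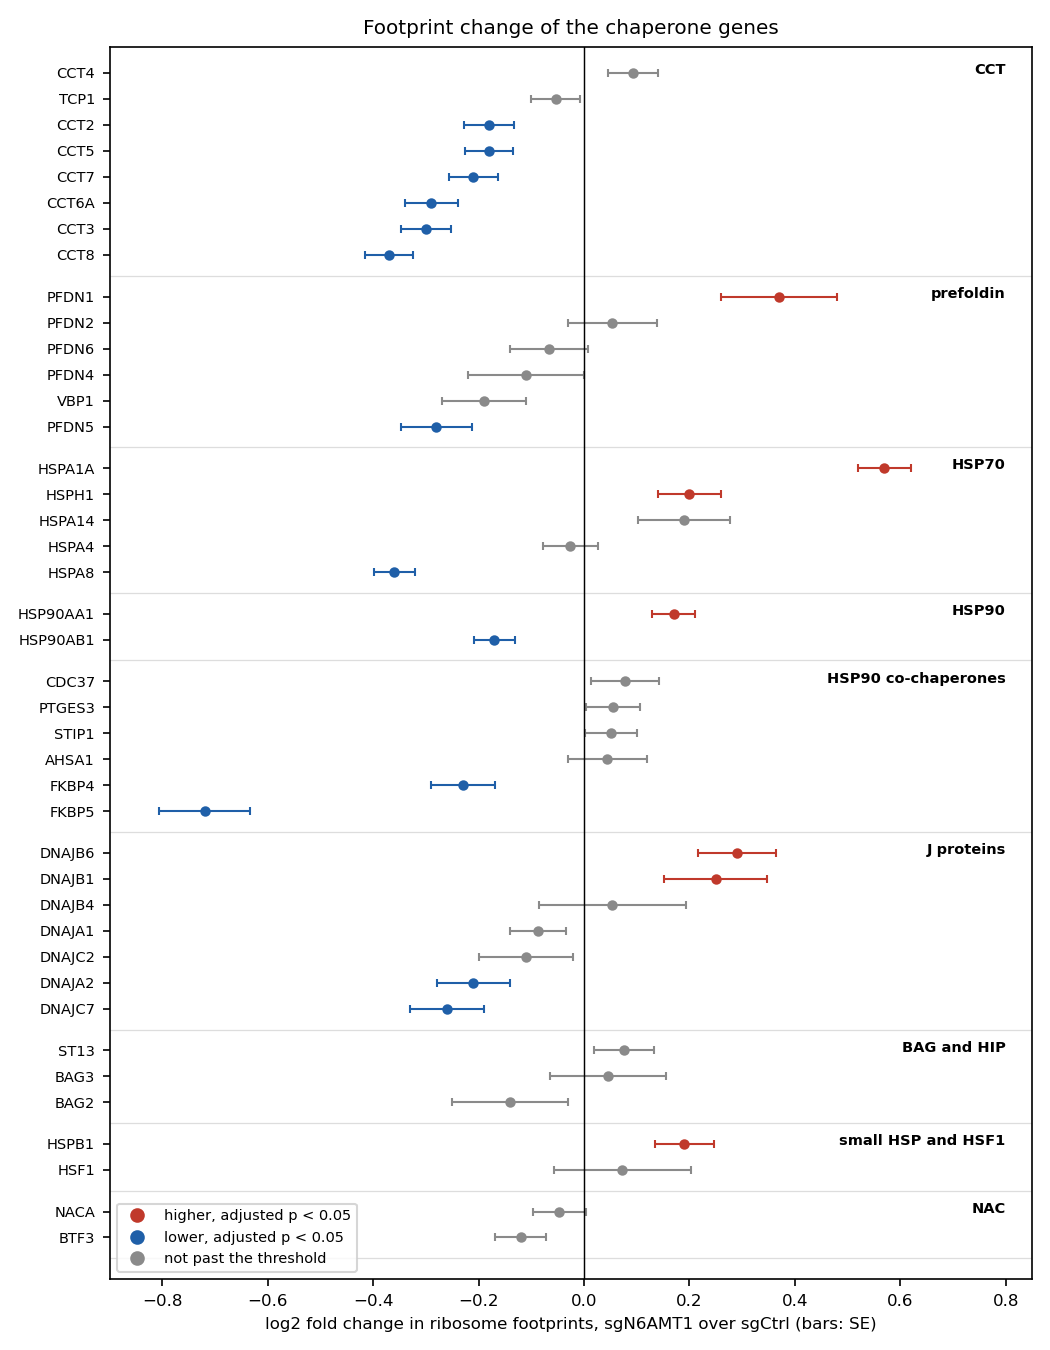
Log2 fold change in ribosome footprints (sgN6AMT1 over sgCtrl, horizontal axis) of the 41 chaperone genes, ordered within their groups, with bars of 1 SE and 3 libraries per group. HSPA1A (0.57) is the highest and FKBP5 (-0.72) the lowest, and 6 CCT subunits lie below 0 past the threshold.

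**Figure D2:**
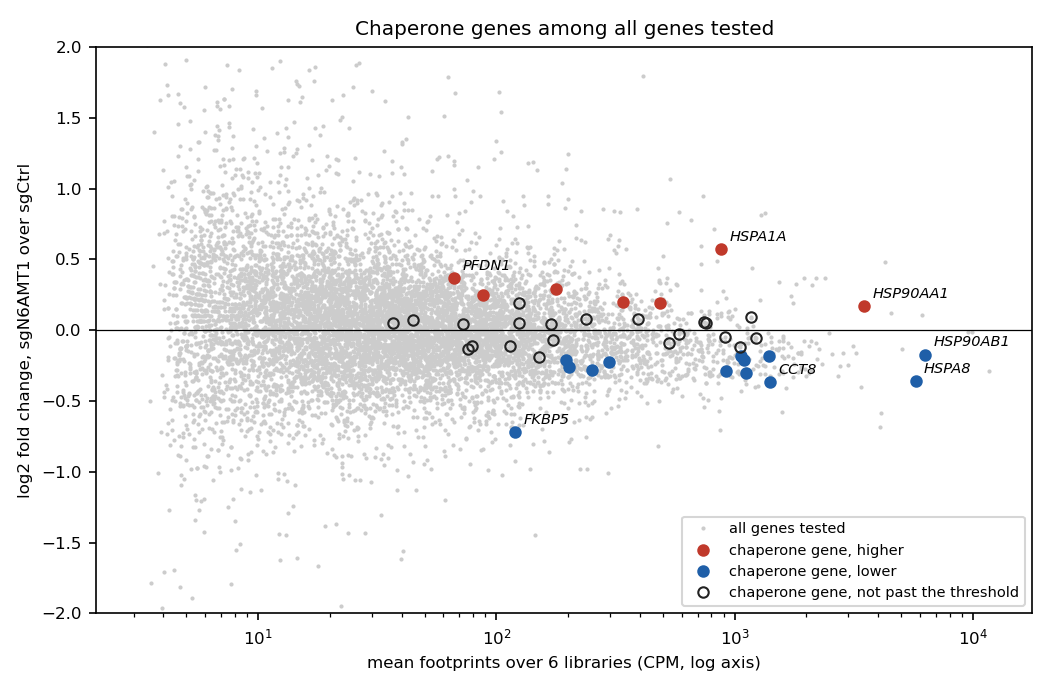
Log2 fold change (vertical axis) against mean footprint level in CPM (horizontal axis, log scale) for all genes tested, with the chaperone genes marked. A total of 40 genes lie outside the plotted range, and the chaperone genes sit mostly to the right of the all-gene median of 35.4 CPM.

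The chaperonin CCT lost footprints on most of its subunits. The footprints on all 8 subunits summed to 9790, 10264 and 9988 CPM in sgCtrl and to 9065, 8717 and 8636 CPM in sgN6AMT1. All 3 depleted libraries were below all 3 controls. As a share of all footprints in a library, without any scaling factor, CCT took 0.979% ± 0.022 (SD, n = 3) in sgCtrl and 0.893% ± 0.023 in sgN6AMT1. By subunit, 6 of 8 fell, none rose, and the median log2 fold change was -0.20. Every CCT subunit lay above the members' median level. Of the 568 genes tested at or above that level, 60.2% passed in either direction, with a median of -0.11.

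CCT8, the theta subunit (chr21:29056326-29073648), fell most among the subunits. It was at 1490, 1667 and 1587 CPM in sgCtrl and at 1282, 1205 and 1196 CPM in sgN6AMT1, with no overlap, a log2 fold change of -0.37 (SE 0.046, adjusted p = 2.88e-10 by edgeR). CCT8 lies on the same chromosome as N6AMT1, and genes of chromosome 21 were lower as a whole: 66 of its 86 tested genes had a log2 fold change under 0, the median was -0.26, and 32 were more negative than CCT8. The part of the chromosome in the CCT8 value was not tested. Without CCT8 the other subunits still held 5 that fell and 2 that did not pass, with a median of -0.18, and these lie on other chromosomes.

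CCT3, the gamma subunit, was at 1251, 1246 and 1214 CPM in sgCtrl and at 982, 1006 and 1028 CPM in sgN6AMT1 (log2 fold change -0.30, SE 0.047, adjusted p = 1.39e-07 by edgeR). CCT6A, the zeta subunit, was at 947, 1061 and 1039 CPM in sgCtrl and at 879, 806 and 811 CPM in sgN6AMT1 (log2 fold change -0.29, SE 0.050, adjusted p = 1.56e-06). Both groups of libraries were apart for each gene. CCT7, CCT2 and CCT5 fell as well, with log2 fold changes of -0.21, -0.18 and -0.18 (SE 0.047, 0.048 and 0.045) and adjusted p of 2.85e-04, 0.00165 and 0.00101. CCT2 no longer passed without sgN6AMT1 replicate 2 (adjusted p = 0.0583).

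CCT4, the delta subunit, and TCP1, the alpha subunit, did not pass. CCT4 was at 1091, 1156 and 1168 CPM in sgCtrl and at 1245, 1238 and 1158 CPM in sgN6AMT1, the only CCT subunit with a positive log2 fold change on the main scale (0.093, SE 0.047, adjusted p = 0.134). It passed the threshold as higher with library totals alone as the scale and with a filter at a mean of 50 counts. TCP1 was at 1249 ± 46.5 CPM in sgCtrl and 1203 ± 68.1 CPM in sgN6AMT1 (SD, n = 3, adjusted p = 0.432), and its sign turned with library totals as the scale.

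The subunits stand in equal numbers in the assembled ring, so their footprints per CDS length were also compared within each library, where no scaling between libraries enters. An even share is 12.5% for each subunit. In sgCtrl the shares ran from 10.4% for CCT6A to 15.6% for CCT8, a ratio of 1.51 between the highest and lowest density. In sgN6AMT1 they ran from 9.65% for CCT6A to 14.9% for CCT5, a ratio of 1.54. CCT8 went from 15.1, 16.1 and 15.7% to 14.0, 13.7 and 13.7%, and from the highest density to the third. CCT4 went from 11.2, 11.3 and 11.8% to 13.8, 14.3 and 13.5%, and from the seventh to the second. The groups were apart for both genes, and also for TCP1, which took a larger share, and CCT3, which took a smaller one. The shares of a complex sum to 100 in each library, so a smaller share of one subunit raises the others.

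**Figure D3:**
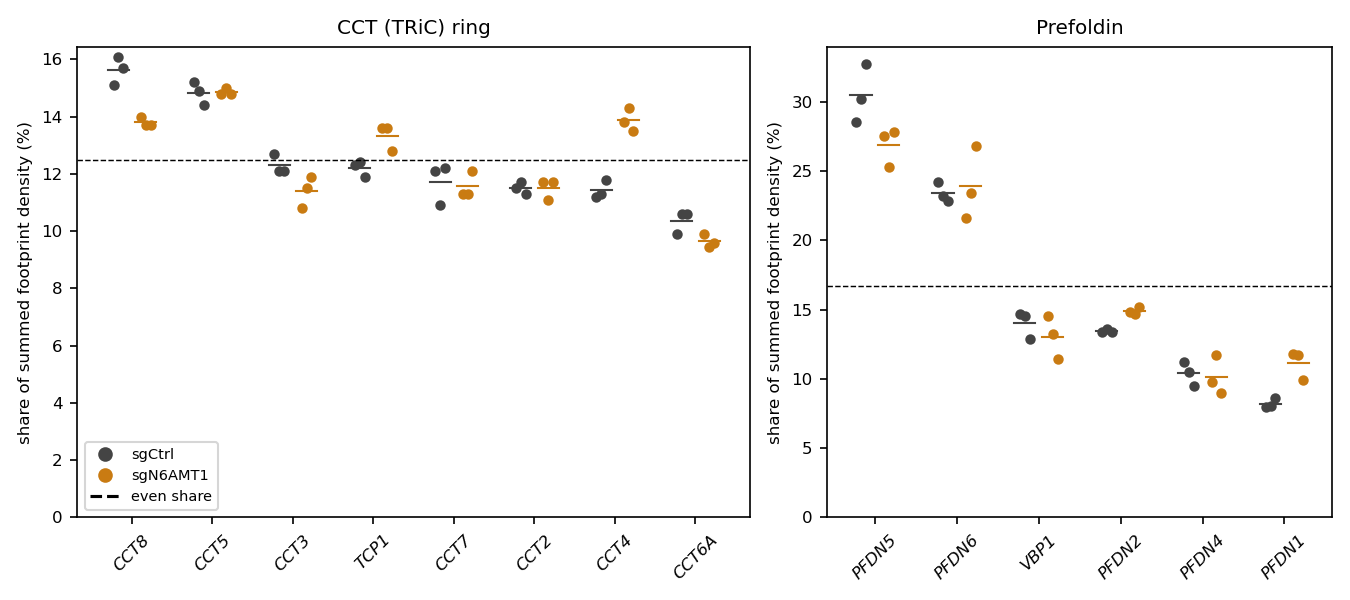
Share of each subunit in the summed footprint density of its complex (vertical axis, percent, density being CPM per kilobase of CDS), per library as points, for CCT and prefoldin, with group means as short lines and the even share as a dashed line. CCT4 sits between 11.2 and 11.8% in sgCtrl and between 13.5 and 14.3% in sgN6AMT1, and PFDN5 takes the largest share of prefoldin in both groups.

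Prefoldin, which hands actin and tubulin chains to CCT, had a far lower summed CPM, which is not corrected for CDS length. The CDS run from 366 to 591 bases in prefoldin and from 1593 to 1668 bases in CCT. Per kilobase of CDS, prefoldin subunits in sgCtrl ran from 160 (PFDN1) to 596 CPM (PFDN5). Those of CCT ran from 638 (CCT6A) to 962 CPM (CCT8). The 6 prefoldin subunits summed to 852, 861 and 915 CPM in sgCtrl and to 825, 831 and 782 CPM in sgN6AMT1, without overlap. As a share of all footprints, without any scaling factor, they took 0.0856% ± 0.0031 and 0.0824% ± 0.0029 (SD, n = 3). On that measure the libraries of the groups overlapped. Of the 6, 1 subunit rose, 1 fell and 4 did not pass, so 33.3% passed, against 26.9% of all genes tested. PFDN5 was at 250, 267 and 309 CPM in sgCtrl and at 234, 219 and 227 CPM in sgN6AMT1, with no overlap (log2 fold change -0.28, SE 0.067, adjusted p = 6.12e-04 by edgeR). Every 30-base window of its CDS is found in transcripts of another annotated gene, so its footprints cannot be assigned to PFDN5 alone. PFDN1 was at 55.3, 56.2 and 64.1 CPM in sgCtrl and at 79.8, 80.4 and 64.1 CPM in sgN6AMT1, so that the third library of each group met, and its rise (log2 fold change 0.37, SE 0.11, adjusted p = 0.00871) was not called by DESeq2 (adjusted p = 0.122) or without replicate 2 of either group. VBP1 was at 161 ± 4.92 and 141 ± 19.8 CPM (SD, n = 3, adjusted p = 0.0700), and PFDN2, PFDN4 and PFDN6 had adjusted p of 0.487 to 0.691. Within the complex, the density ratio between the highest subunit, PFDN5, and the lowest was 3.73 in sgCtrl and 2.64 in sgN6AMT1. The lowest was PFDN1 in sgCtrl and PFDN4 in sgN6AMT1. The listed PFDN4 transcript, with a CDS of 408 bases, is annotated as subject to nonsense-mediated decay. Its density, and that of PFDN5 with its shared sequence, may therefore not be comparable.

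The HSP70 group held the clearest opposite movement. HSPA8 (HSC70), the constitutive HSP70 (chr11:123057497-123061332), was the most occupied of the 41 per CDS length in sgCtrl, at 3339 ± 51.8 CPM per kilobase (SD, n = 3). It was at 6501, 6553 and 6359 CPM in sgCtrl and at 5089, 4928 and 5101 CPM in sgN6AMT1, so that the mean fell by 22.1% (log2 fold change -0.36, SE 0.039, adjusted p = 7.11e-13 by edgeR). The libraries of each group lay close together and the groups were far apart. HSPA1A, the stress-inducible HSP70 (chr6:31815543-31817942, 1 exon), was at 758, 676 and 681 CPM in sgCtrl and at 973, 1049 and 1119 CPM in sgN6AMT1, a 1.49-fold rise of the mean (log2 fold change 0.57, SE 0.051, adjusted p = 1.10e-16). Every depleted library exceeded every control.

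Of the 30-base windows of the HSPA1A CDS, 95.83% are shared with another annotated gene, chiefly HSPA1B, which had no row in the table, so the HSPA1A value may hold footprints of both. For HSPA8 the shared part is 54.06%, with processed copies such as HSPA8P1. The weight of HSPA1A among the footprints of these 2 genes was 10.4, 9.35 and 9.68% in sgCtrl, against 16.0, 17.5 and 18.0% in sgN6AMT1. The exact (Clopper-Pearson) 95% intervals ran from 8.96 to 11.0% over sgCtrl and from 15.4 to 18.7% over sgN6AMT1, and cover counting error only. In promoter letters, HSPA8 holds 3-unit heat shock elements and HSPA1A a 2-unit one, as printed above.

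The large HSP70 HSPH1 (HSP110), a nucleotide exchange factor for HSP70, was at 304, 334 and 308 CPM in sgCtrl and at 373, 362 and 354 CPM in sgN6AMT1 (log2 fold change 0.20, SE 0.059, adjusted p = 0.00669 by edgeR; 0.0659 by DESeq2). The groups did not overlap. HSPA4 (APG2), a related exchange factor, was at 590 ± 20.9 and 579 ± 15.7 CPM (SD, n = 3, adjusted p = 0.760). HSPA14, a ribosome-linked HSP70, was at 116 ± 12.6 and 133 ± 11.1 CPM (adjusted p = 0.0951). Summed, the 5 HSP70 genes with a row were at 8270, 8289 and 8033 CPM in sgCtrl and at 7157, 7070 and 7256 CPM in sgN6AMT1, and the sum is mostly HSPA8.

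**Figure D4:**
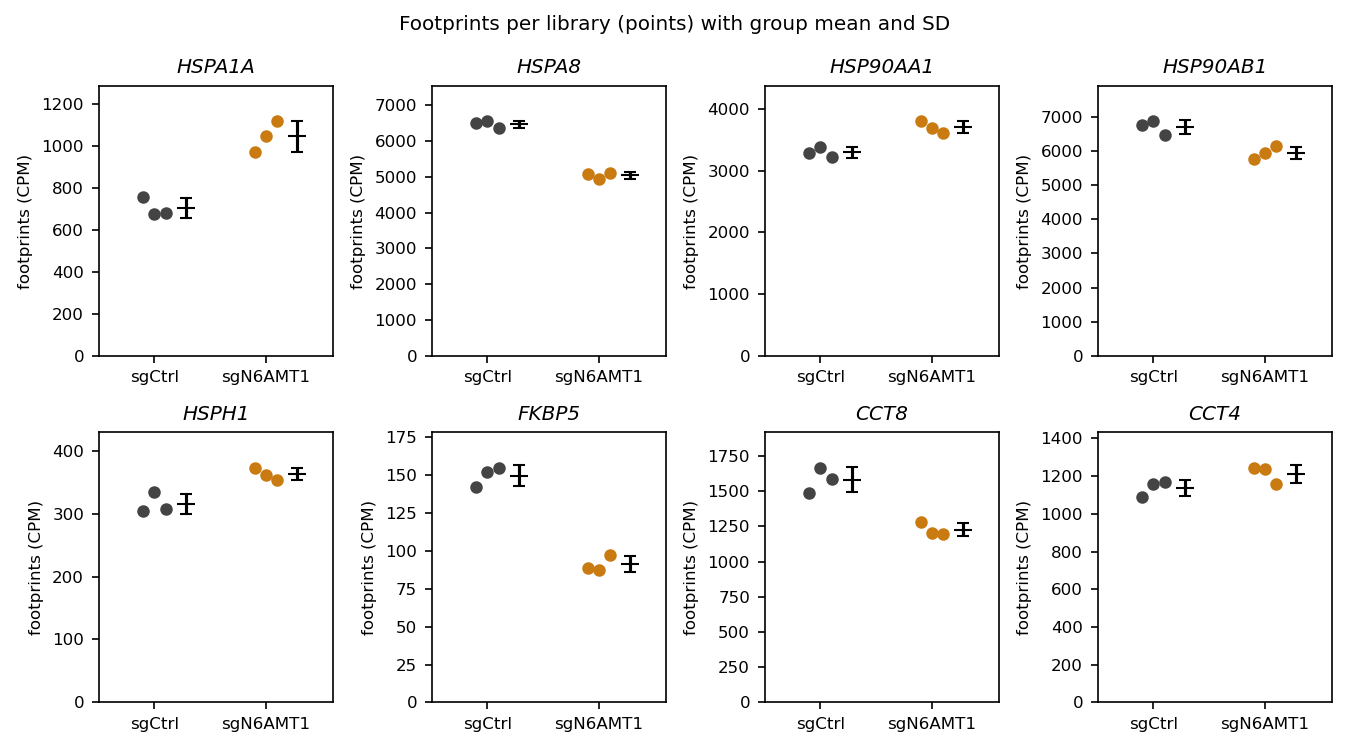
Footprints in CPM (vertical axes, from 0) in each of the 3 sgCtrl and 3 sgN6AMT1 libraries as points, with group mean and SD beside them, for HSPA1A, HSPA8, HSP90AA1, HSP90AB1, HSPH1, FKBP5, CCT8 and CCT4. The groups are apart for every gene except CCT4, whose highest sgCtrl library (1168 CPM) exceeds its lowest sgN6AMT1 library (1158 CPM).

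The HSP90 genes also moved apart. HSP90AA1, the inducible HSP90 alpha (chr14:102081049-102139686), was at 3284, 3383 and 3213 CPM in sgCtrl and at 3798, 3692 and 3612 CPM in sgN6AMT1 (log2 fold change 0.17, SE 0.041, adjusted p = 7.73e-04 by edgeR). HSP90AB1, the constitutive HSP90 beta (chr6:44246166-44253888), was at 6772, 6871 and 6458 CPM in sgCtrl and at 5762, 5927 and 6134 CPM in sgN6AMT1 (log2 fold change -0.17, SE 0.039, adjusted p = 2.83e-04). Neither pair of groups overlapped, and both calls were made in all 15 alternative settings. HSP90AA1 took 32.7, 33.0 and 33.2% of the footprints of both genes in sgCtrl and 39.7, 38.4 and 37.1% in sgN6AMT1, with exact 95% intervals of 32.0 to 33.9% and 36.4 to 40.4% over the libraries. Their sum was 10055, 10254 and 9671 CPM in sgCtrl and 9560, 9619 and 9746 CPM in sgN6AMT1, which overlap, and 0.977% of all footprints in both groups. Of the 30-base windows of each CDS, 51.01% for HSP90AA1 and 51.24% for HSP90AB1 are shared with processed copies.

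Set side by side, the 4 main groups differed in pattern. In CCT 6 of 8 genes fell and none rose, in prefoldin 1 rose and 1 fell of 6, in HSP70 2 rose and 1 fell of 5, and in HSP90 1 rose and 1 fell of 2. Over all genes tested, 12.9% rose and 13.9% fell. Of the 568 genes at or above the members' median level, 60.2% passed in either direction. The median log2 fold changes were -0.20 for CCT, -0.089 for prefoldin and 0.19 for HSP70, the last being the value of HSPA14, which did not pass. The HSP70 median was 0.11 without sgCtrl replicate 1. That of prefoldin was -0.044 without sgN6AMT1 replicate 1, -0.058 without sgN6AMT1 replicate 3 and -0.14 without sgN6AMT1 replicate 2, and -0.034 with library totals and -0.18 with CDS length and GC trends removed. In CPM, summed footprints of CCT, prefoldin and HSP70 did not overlap between sgCtrl and sgN6AMT1, and the depleted libraries were the lower ones, while those of HSP90 overlapped. For prefoldin this held on the TMM scale only, since its unscaled shares of all footprints overlapped between the groups. Differences between the groups of genes were not tested.

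The co-chaperones of HSP90 moved on their immunophilin members. FKBP5 (FKBP51), a prolyl isomerase of steroid receptor complexes (chr6:35573585-35688915), had the lowest log2 fold change of the 41 genes. It was at 142, 152 and 155 CPM in sgCtrl and at 88.5, 87.7 and 97.2 CPM in sgN6AMT1, so that the mean fell by 39.3% (log2 fold change -0.72, SE 0.087, adjusted p = 4.63e-11 by edgeR). No 30-base window of its CDS is shared with another gene. FKBP4 (FKBP52), its close relative, was at 325, 333 and 305 CPM in sgCtrl and at 277, 276 and 271 CPM in sgN6AMT1 (log2 fold change -0.23, SE 0.061, adjusted p = 0.00258). STIP1 (HOP), which bridges HSP70 and HSP90, AHSA1, which stimulates the HSP90 ATPase, CDC37, which brings kinases, and PTGES3 (p23) had log2 fold changes of 0.044 to 0.078 and did not pass (adjusted p = 0.410 to 0.719).

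Among J proteins, which start the HSP70 cycle, DNAJB6 and DNAJB1 rose, DNAJC7 and DNAJA2 fell and 3 did not pass. The shares over all genes tested were 12.9% higher and 13.9% lower, and 36.5% passed among those at or above 36.9 CPM. DNAJB6, an anti-aggregation J protein, was at 156, 167 and 159 CPM in sgCtrl and at 209, 204 and 174 CPM in sgN6AMT1 (log2 fold change 0.29, SE 0.074, adjusted p = 0.00133 by edgeR), and 59.3% of its windows are shared with processed copies. DNAJB1 (HSP40), the stress-inducible partner of HSPA1A, was at 77.9, 81.7 and 81.3 CPM in sgCtrl and at 96.0, 100 and 90.1 CPM in sgN6AMT1, with no overlap. Its adjusted p of 0.0471 lay close to the threshold and was past it in only some settings (lost in 9 of 15). DNAJC7 was at 214, 220 and 225 CPM in sgCtrl and at 194, 189 and 166 CPM in sgN6AMT1 (log2 fold change -0.26, SE 0.070, adjusted p = 0.00256). DNAJA2 was at 200, 220 and 211 CPM in sgCtrl and at 184, 183 and 182 CPM in sgN6AMT1 (adjusted p = 0.0175 by edgeR, 0.103 by DESeq2). DNAJA1, DNAJB4 and DNAJC2 had log2 fold changes of -0.087, 0.054 and -0.11 and did not pass.

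HSPB1 (HSP27), an ATP-independent small heat shock protein, was at 464, 408 and 487 CPM in sgCtrl and at 499, 516 and 534 CPM in sgN6AMT1 (log2 fold change 0.19, SE 0.056, adjusted p = 0.00539 by edgeR, 0.0718 by DESeq2). The groups did not overlap, but the call was also lost without sgCtrl replicate 2, the deepest library, and with trends on CDS length and GC content removed. HSF1, the factor that drives the heat shock response, was at 43.1 ± 1.58 and 45.9 ± 4.72 CPM (SD, n = 3, adjusted p = 0.720). The exchange factors BAG2 and BAG3 and the HSP70 cofactor ST13 (HIP) did not pass, with adjusted p of 0.346 to 0.807. The nascent polypeptide-associated complex, which meets chains at the ribosome exit, had NACA at 930 ± 40.7 and 900 ± 61.3 CPM (adjusted p = 0.533) and BTF3 at 1096 ± 60.6 and 1008 ± 51.0 CPM (adjusted p = 0.0511), and BTF3 passed in 5 of the 15 alternative settings. The NACA transcript in the table is a long form with a CDS of 6234 bases, so its density is not comparable.

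A wider list of 92 related genes, drawn from the same pathways and not overlapping the 43, was read beside them. Of its 76 genes tested, 10 rose and 17 fell, 35.5% in all against 26.9% of all genes tested and 36.5% of those at or above 36.9 CPM, with a median log2 fold change of -0.03. The CCT and prefoldin partners, 13 genes tested, had 4 that rose and 4 that fell. UXT, a prefoldin-like subunit, went from 109 ± 3.29 to 163 ± 9.73 CPM (SD, n = 3, log2 fold change 0.58, SE 0.082, adjusted p = 9.38e-09 by edgeR). URI1, its partner in the same complex, had a log2 fold change of 0.58 (SE 0.16, adjusted p = 0.00279). It was at 23.1, 27.6 and 24.6 CPM in sgCtrl and at 49.5, 35.0 and 27.7 CPM in sgN6AMT1. The third depleted library thus lay next to the highest control. The tubulin cofactors split: TBCB had a log2 fold change of 0.63 (SE 0.15, adjusted p = 5.60e-04) and TBCE, at 104 ± 2.55 and 65.7 ± 9.17 CPM, one of -0.67 (SE 0.10, adjusted p = 1.33e-07). TXNDC9, a thioredoxin-domain regulator of CCT, was at 110, 117 and 103 CPM in sgCtrl and at 79.8, 75.6 and 60.8 CPM in sgN6AMT1 (log2 fold change -0.60, adjusted p = 7.71e-07). NUDCD2, an HSP90 co-chaperone, went from 44.2 ± 1.67 to 28.9 ± 5.30 CPM (log2 fold change -0.59, SE 0.14, adjusted p = 4.70e-04). Among the other HSP70 system genes 2 rose and 4 fell of 19, among the other HSP90 co-chaperones 1 rose and 3 fell of 25, and among the nascent chain factors 1 rose and 4 fell of 9. Of 3 small HSPs and heat shock factors tested, none passed. Of 10 other heat-inducible genes, 2 rose and 3 fell. Some of these also stand in another subgroup, so the subgroup counts do not add up to those of the whole list.

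Sequence shared with other genes was found among members of either direction. Of the 14 members with no 30-base window in common with another gene, 1 rose and 4 fell. Of the 9 with more than 50% of windows shared, 3 rose and 3 fell. Over all genes tested, 12.9% rose and 13.9% fell. The 3 that rose with mostly shared windows were HSPA1A, HSP90AA1 and DNAJB6, the only members DESeq2 called higher. HSPH1, the 1 that rose without shared windows, was not called by DESeq2 (adjusted p = 0.0659). The effect of shared sequence on the calls was not tested.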

How the data were processed

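Footprint counts per transcript were deposited by the authors as 1 table for 3 sgCtrl and 3 sgN6AMT1 libraries, neither normalized nor pooled. The authors trimmed reads with cutadapt, selected footprint lengths, mapped to GRCh38 with HISAT2, removed rRNA and tRNA reads, and mapped the rest to canonical transcripts with bowtie2, taking P-sites with riboWaltz. They also counted overlaps with a gene annotation. The sources used here do not say which kind of count was deposited, or how reads matching several genes were treated.

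The test of these counts was run in edgeR 4.0.16 under R 4.3.3 (quasi-likelihood F test, robust, 2-sided; TMM factors; filterByExpr at a minimum of 10 counts; Benjamini-Hochberg adjustment over 9202 genes; threshold 0.05). The 10128 genes removed held 0.465% of counts. CPM are TMM-scaled, log2 fold changes are sgN6AMT1 over sgCtrl, and density is CPM per kilobase of CDS from GENCODE 44. Chi-square per degree of freedom between libraries was 1.25 to 1.68 within and 4.89 to 7.04 across groups. Same-numbered libraries did not deviate together (correlations -0.061, 0.020 and 0.016). Alternatives used DESeq2 1.42.0, limma 3.58.1 and other edgeR settings. Scripts were tested on simulated data. Every member could be named, as could the 3 highest and 3 lowest of the wider list past the threshold with at least 10 CPM and no overlap. The members, gene lists and tests were chosen with earlier results of these data known. The summed level of the B cell marker list is not reported here.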

Additional observations from a re-analysis of the deposited data

How the results depend on the processing

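Of the 20 members past the threshold, 14 passed in all 15 alternative settings, 6 lost the call in at least 1 (CCT2, DNAJA2, DNAJB1, HSPB1, HSPH1 and PFDN1) and 0 changed direction; 5 of the 21 others passed in at least 1. DESeq2 called 1324 genes (585 higher, 739 lower) against 2473 by edgeR, and 15 members, of which 3 were higher. With library totals as the scale, which put the median log2 fold change of all genes at 0.061 instead of 0.0063, the split over all genes was 1560 higher and 976 lower against 1191 and 1282, and the members were 9 higher and 12 lower. Leaving out 1 library at a time gave 16 to 21 members past the threshold, the fewest without sgN6AMT1 replicate 2. Without CCT8, an alternative chosen after seeing the data, 19 members passed. With the replicate number as a block, 2390 genes and 19 members passed (6 higher, 13 lower), DNAJB1 being the one lost. The sources used here do not say whether same-numbered libraries were paired, and the correlations of their deviations cannot settle it. Among members that did not pass, the sign turned with CDS length and GC trends removed for AHSA1 (-0.024), BAG3 (-0.030), CDC37 (-0.048), HSF1 (-0.0049), HSPA4 (0.0096) and PFDN2 (-0.082), and with library totals for HSPA4 (0.028), NACA (0.0079) and TCP1 (7.6e-04). The cause was not tested. It turned without 1 library for AHSA1 (-0.013 to 0.10), BAG3 (-0.041 to 0.19) and DNAJB4 (-0.042 to 0.14). The planned sum of HSPA1A and HSPA1B was not run, since HSPA1B had no row. The SE was 0.14 for DNAJB4 and 0.13 for HSF1, the members with the fewest footprints, against 0.039 for HSPA8.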
